A study of Mus musculus with 7 samples.

Results

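The genes described here are 38 genes of the lysosome: 21 acid hydrolases, 2 lumenal cofactors (Psap and Npc2), 7 membrane proteins and 8 subunits or accessory proteins of the vacuolar proton pump. They were chosen by name as well-known lysosomal genes and were matched by symbol to the 55401 genes counted in each library. All 38 matched 1 gene each, and all 38 were among the 17621 genes with enough reads to be tested.

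The study compared RNA bound to ribosomes of cerebellar Purkinje cells between wild-type mice and mice homozygous for nm3888, at 3 weeks of age. This spontaneous mutation, first found in mice of the NOD/ShiLtJ strain, is a retroviral insertion in an intron of Rreb1, which encodes a zinc finger transcription factor, and it causes loss of the V7 transcript of that gene. Both groups carried the RiboTag allele (Rpl22 fl/+, which makes an HA-tagged ribosomal protein after Cre recombination) and the PCP2-Cre transgene, whose promoter is active in Purkinje cells. By the labels the groups differed in the nm3888 genotype and, in part of the libraries, in sex. Each library came from the cerebellum of 1 mouse. The strain composition of these particular mice is not given in the sources used here.

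There were 3 wild-type and 4 nm3888-/- libraries, with 18023017 to 107937386 counted reads. The names and header paths of the libraries split them into 2 library series: the first held wild types 1 and 2 and mutants 1 and 2, all female, and the second held wild type 3 (female) and mutants 3 and 4 (male). Sex and genotype can therefore not be told apart within the second series. The summed level of 12 Purkinje cell markers, among them Calb1 and Pcp2, was 40200 to 48800 CPM (counts scaled to library size and TMM factor) in wild type and 37300 to 54500 CPM in mutants, so the labelled cell type was present in every library. The mutated gene gave no support to the genotype labels, since counts over the whole of Rreb1 were not lower in the libraries labelled nm3888-/-. Its level was 17.7, 17.4 and 14.4 CPM in wild types 1 to 3 and 20.2, 19.1, 23.7 and 10.8 CPM in mutants 1 to 4 (log2 fold change 0.20, SE 0.23, edgeR adjusted p = 0.64). Reads of the V7 transcript alone could not be separated in gene counts. The paper reports V7 as the main Rreb1 transcript of wild-type cerebellum. By quantitative RT-PCR, with primers also listed for V7, it found Rreb1 much lower in mutant cerebellum. The other long Rreb1 transcripts it detected were at similar levels in mutant and wild-type cerebellum. The paper also describes loss of the main band on a blot for total Rreb1. It also found no Rreb1 signal in mutant brain with a probe for all transcripts. Those assays used tissue RNA or sections and not ribosome-bound RNA. The gene counts here showed no such loss, and the reason was not tested. Below, wild type and mutant therefore mean the libraries labelled so, and every direction rests on those labels.

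Lysosomes are the acidic compartments in which cells break down proteins, glycans, lipids and nucleic acids delivered by endocytosis and autophagy. The vacuolar proton pump, with a membrane sector (V0) and a cytosolic ATPase sector (V1), acidifies the lumen, and the acid hydrolases generally work best at that low pH. Loss of single hydrolases or membrane proteins causes lysosomal storage diseases, many of which damage neurons, and Purkinje cells are among the neurons most often lost in them. Many genes of the group carry in their promoters the E-box recognized by the transcription factor TFEB and its relatives, which can raise lysosomal genes together.

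The promoters of several members are shown because they hold this shared element, which the choice of genes did not use. RefSeq promoter windows (assembly GRCm38.p6, the build of the counts, from 250 bases before to 50 bases after each gene start) were found for 34 of the 38 members. The palindrome TCACGTGA, a longer form of the core E-box CACGTG and so overlapping it, was read on both strands. It was present in 7 of the 34 members (20.6%) and in 304 of 27025 genes in the promoter table (1.12%). The core CACGTG was present in 13 of the 34 members (38.2%) and in 8.09% of all genes. Windows of 30 bases are given 5′ to 3′ on the strand of the gene, with the motif in capitals. The first is from Ctsd (chr7:142387908-142387937, minus strand), the second from Mcoln1 (chr8:3500462-3500491, plus strand), the third from Cln3 (chr7:126583340-126583369, minus strand), the fourth from Atp6v0d1 (chr8:105566050-105566079, minus strand) and the fifth from Atp6v1a (chr16:44139373-44139402, minus strand). The last pair hold only the core and are from Lamp1 (chr8:13159088-13159117, plus strand) and Ctsl (chr13:64370739-64370768, minus strand).
Ctsd: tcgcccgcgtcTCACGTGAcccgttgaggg
Mcoln1: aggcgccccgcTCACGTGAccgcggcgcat
Cln3: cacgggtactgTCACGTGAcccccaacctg
Atp6v0d1: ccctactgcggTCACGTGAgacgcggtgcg
Atp6v1a: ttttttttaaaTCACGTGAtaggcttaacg
Lamp1: agggcaagatatCACGTGgtccagcgccca
Ctsl: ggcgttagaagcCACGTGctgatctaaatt
The Lamp1 promoter held 4 copies of the core and the other promoters printed held 1 copy each of the motif shown. A match is a description of the letters in these windows and not evidence of binding.

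In wild-type Purkinje cells the 38 genes spanned a wide range of levels. Levels of different genes were compared per length, as TPM, which scale the counts for the exon length of each gene and for library size. Psap, which encodes the precursor of the saposins that help hydrolases act on sphingolipids, was highest at 2020 ± 853 TPM (SD, n = 3). It was followed by Atp6ap1, an accessory protein of the pump, at 530 ± 149 TPM, by Lamp1, a heavily glycosylated protein of the lysosomal membrane, at 499 ± 162 TPM, by Atp6v0c, the proteolipid of the membrane sector, at 433 ± 105 TPM, and by Ctsb, the cysteine protease cathepsin B, at 423 ± 91.1 TPM. The order of these last 4 depended on the library series: Atp6v0c was the highest of them in wild types 1 and 2 (473 and 512 TPM) and the lowest in wild type 3 (315 TPM, against 702 for Atp6ap1, 682 for Lamp1 and 527 for Ctsb). Smpd1, acid sphingomyelinase, and Ctsd, the aspartic protease cathepsin D, followed among the hydrolases at 191 ± 44.2 and 189 ± 41.2 TPM.

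**Figure D1:**
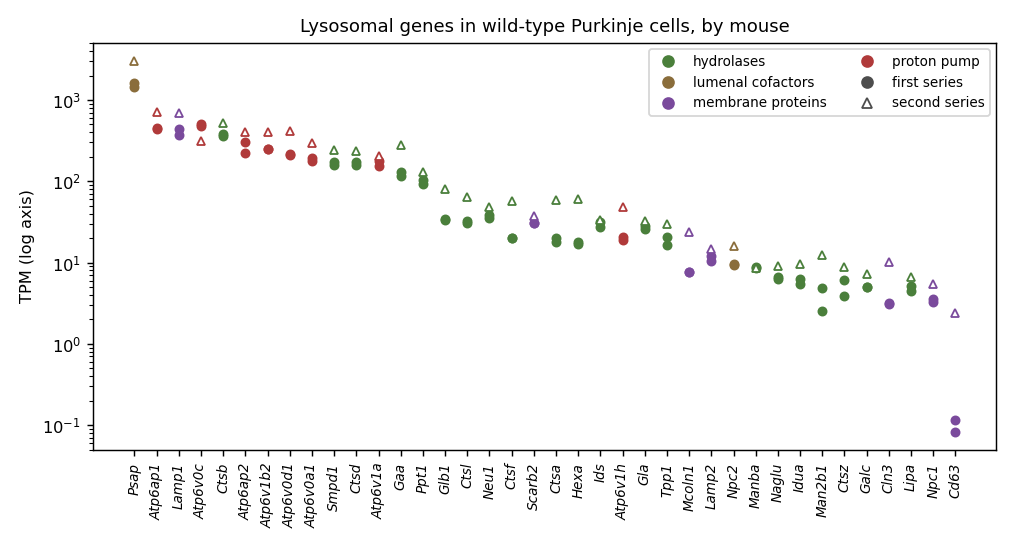
Level of each of the 38 genes in the 3 wild-type libraries (TPM, log axis), ordered by the mean. Filled circles are wild types 1 and 2 and open triangles wild type 3, coloured by protein class. Psap was highest (mean 2020 TPM) and Cd63 lowest (mean 0.868 TPM).

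Pump subunits had higher levels than most hydrolases. The 8 pump members had a median of 292 TPM and ranged from 29.3 (Atp6v1h, the regulatory H subunit of the ATPase sector) to 530 TPM. The 21 hydrolases had a median of 31.6 TPM and ranged from 5.39 (Lipa) to 423 TPM. The 7 membrane proteins had a median of 12.4 TPM, far below Lamp1. Npc1, the cholesterol exporter mutated in Niemann-Pick disease type C, was at 4.08 ± 1.18 TPM. Cd63, a tetraspanin of late endosomes and lysosomes, was lowest at 0.868 ± 1.33 TPM.

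Between genotypes, most lysosomal genes did not pass the test, and the median change of the 38 genes equalled that of all genes. An edgeR quasi-likelihood test with library series as a term and Benjamini-Hochberg adjustment over all 17621 genes called 5 of the 38 (13.2%) at an adjusted p under 0.05. Over all tested genes the same rule called 8.54%, of which 5.95% of genes were lower and 2.58% higher in mutants. An unadjusted p under 0.05 in the same test was reached by 9 of the 38 and by 4152 of all 17621 genes. The genes that rose were Ctsl, Hexa and Cd63, and those that fell were Lipa and Neu1. Over the 38 genes the median log2 fold change was 0.03, as it was 0.03 over all genes tested, and 18 of the 38 were below 0. For 33 members (86.8%) the log2 fold change lay within ±0.5, as it did for 80% of all genes tested. The 95% interval of 33 members lay within ±1, while 23 had an interval within ±0.5. Over all 17621 genes these intervals numbered 12862 and 5969. In such bulk ribosome-bound RNA, fewer cells with tagged ribosomes and less RNA per cell cannot be told apart.

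**Figure D2:**
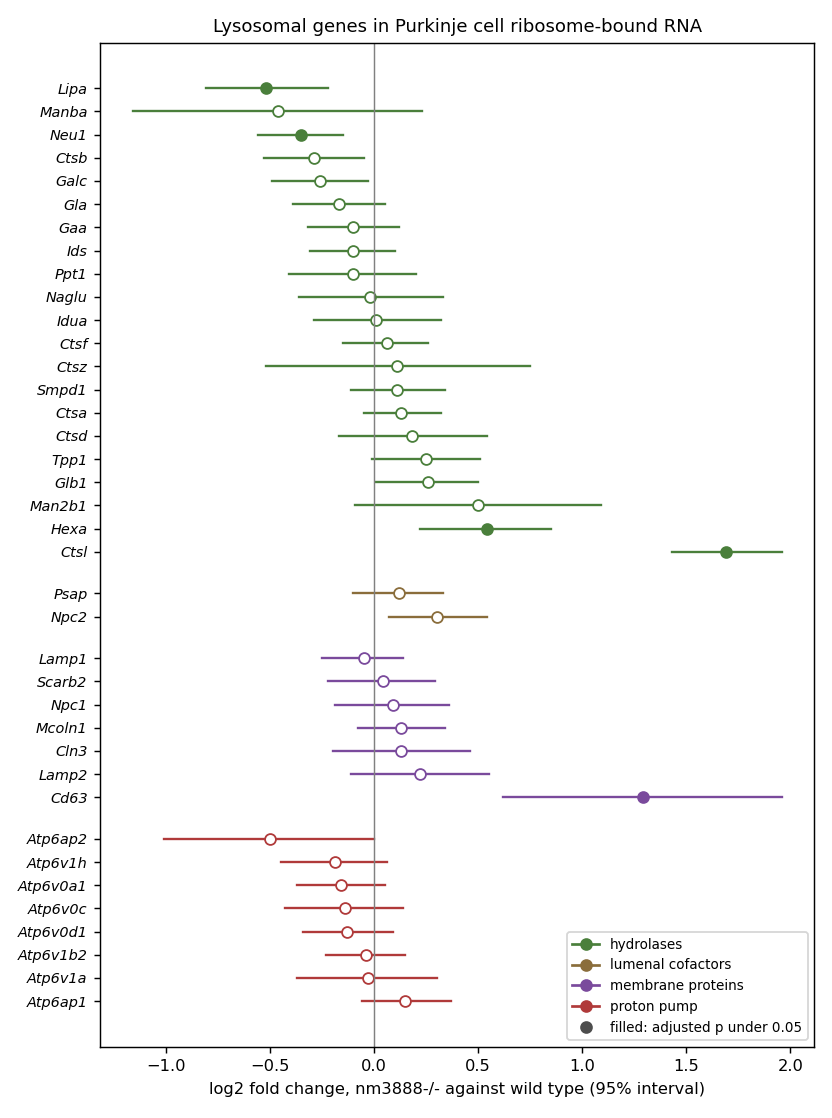
Log2 fold change of each of the 38 genes in nm3888-/- against wild-type libraries with its 95% interval, from edgeR's quasi-likelihood fit with library series as a term, by protein class. Filled points are the 5 genes with an adjusted p under 0.05. Ctsl stands at 1.69 and the pump subunits lie between -0.50 and 0.15.

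Ctsl encodes cathepsin L, a cysteine protease of the lysosome that cleaves a broad range of proteins and helps mature other cathepsins (chr13:64359337-64370890). Its level was 77.2, 76.5 and 116 CPM in wild types 1 to 3 and 293, 243, 363 and 312 CPM in mutants 1 to 4. Every mutant library was more than 2-fold above every wild-type library. The means were 90 ± 22.7 CPM (SD, n = 3) and 303 ± 49.8 CPM (SD, n = 4). The fitted log2 fold change was 1.69 (SE 0.12, 95% interval 1.43 to 1.96, edgeR adjusted p = 7.49e-05), which is 3.24-fold (2.69 to 3.89).

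The rise of Ctsl was present in each library series, at 1.80 in the first and 1.54 in the second on the log2 scale. It was the largest fold change among the 38 genes. Over all 17621 genes Ctsl ranked 53 by p-value, and 72 of the 455 genes called higher had a larger log2 fold change. With mouse numbers as blocks it was 1.74 (adjusted p = 6.20e-04). Mutant 4 had no wild type of its number, so it added nothing to the genotype difference in the block fits. The call was lost with sex in place of library series (1.57, adjusted p = 0.0692) and with mutant 2 placed in the second series (1.65, adjusted p = 0.0529). Ctsl was the only member on chromosome 13, which also holds Rreb1 (chr13:37778400-37952005), and its start lies 26.4 Mb beyond the end of that gene.

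Hexa encodes the alpha subunit of beta-hexosaminidase, the enzyme deficient in Tay-Sachs disease (chr9:59539540-59565109). Its level was 12.3 and 14 CPM in the wild types and 23 and 15.8 CPM in the mutants of the first series. In the second series it was 33.5 CPM in the wild type and 46.6 and 48.9 CPM in the mutants. The genotypes overlapped over the 7 libraries but not within a series, since the second series stood higher in both genotypes. Fitted over both series, the log2 fold change was 0.54 (SE 0.14, 95% interval 0.22 to 0.85, edgeR adjusted p = 0.0493), and with mouse numbers as blocks the call was lost (0.51, adjusted p = 0.138). With sex in place of library series, which set mutants 1 and 2 against wild types of both series, the direction turned (-0.04, adjusted p = 0.983). The call was kept without mutant 2 but lost without any other single library (adjusted p = 0.0711 to 0.201).

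Lipa encodes lysosomal acid lipase, which hydrolyses cholesteryl esters and triglycerides (chr19:34492318-34527474), and it was lower in the mutants. Its level was 12.6, 11.9 and 12.5 CPM in wild types 1 to 3 and 7.86, 9.86, 8.79 and 7.68 CPM in mutants 1 to 4. All 4 mutants lay below all 3 wild types. This gave a log2 fold change of -0.52 (SE 0.13, 95% interval -0.81 to -0.22, edgeR adjusted p = 0.0422), and -0.48 with mouse numbers as blocks (adjusted p = 0.138). Leaving out any 1 library ended the call (adjusted p = 0.0523 to 0.259), as did sex in place of library series (-0.48, adjusted p = 0.451).

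Neu1 encodes lysosomal sialidase, which works in a complex with beta-galactosidase (Glb1) and the protective protein cathepsin A (Ctsa) (chr17:34931253-34935953). Its level was 48.3, 55 and 51.1 CPM in wild types 1 to 3 and 41.7, 40, 37.7 and 41 CPM in mutants 1 to 4. Here too the genotypes did not overlap, and the mutants were within a narrow range. Its log2 fold change was -0.35 (SE 0.09, 95% interval -0.56 to -0.15, edgeR adjusted p = 0.049), and -0.37 with mouse numbers as blocks (adjusted p = 0.151). This call too was lost without any 1 library (adjusted p = 0.0678 to 0.244) and with sex as the term (-0.33, adjusted p = 0.415). The partners of Neu1 in that complex did not pass the test: Ctsa was at 0.13 (adjusted p = 0.372) and Glb1 at 0.26 (adjusted p = 0.187). Libraries of the 2 genotypes did not overlap for 2 members that were lower, Lipa and Neu1, against 8.92% of all genes, and for 1 that was higher, Ctsl, against 5.16% of all genes.

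Cd63 was called higher, but on counts that differed more between library series than between genotypes. There were 4 and 3 counts in wild types 1 and 2 and 7 and 9 counts in mutants 1 and 2, against 254 counts in wild type 3 and 454 and 219 counts in mutants 3 and 4. These are 0.158, 0.119 and 2.48 CPM in wild type and 0.367, 0.268, 7.65 and 4.85 CPM in mutants. The log2 fold change was 1.29 (SE 0.29, 95% interval 0.62 to 1.96, edgeR adjusted p = 0.0299). The processed pseudogene Cd63-ps took 59 to 92 counts in each first-series library and 0 to 5 counts in those of the second. With its counts added to those of Cd63 the log2 fold change was 0.82 and the call was lost (adjusted p = 0.115), an alternative chosen after seeing the data. With sex in place of library series, which set mutants 1 and 2 against wild types of both series, the direction turned (-1.59, adjusted p = 0.848). The call was kept without mutant 4 but lost without any other single library (adjusted p = 0.0572 to 0.424).

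**Figure D3:**
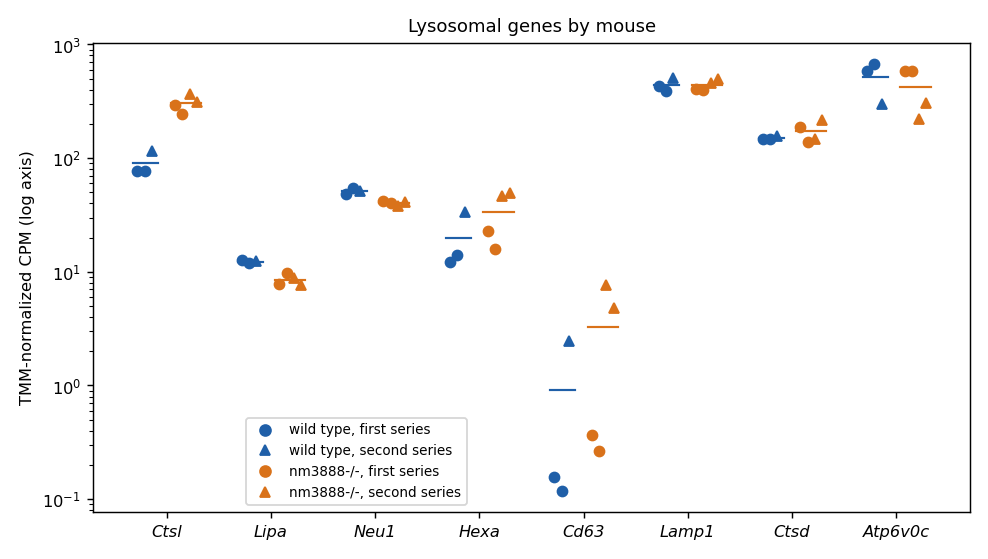
TMM-normalized CPM (log axis) in each of the 7 libraries for the 5 called genes, for Lamp1 and Ctsd, and for Atp6v0c. Circles are the first and triangles the second library series, blue is wild type and orange nm3888-/-, and lines mark group means. Ctsl in the mutants (243 to 363 CPM) lies above all wild types (76.5 to 116 CPM), and Cd63 and Atp6v0c separate by library series.

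Markers of other cell types stood higher in several mutants, and their part in these results was not tested. The summed level of 12 microglial markers was 8.11 to 17.9 CPM in wild type and 9.27 to 24.1 CPM in mutants. Over all 17621 genes tested, edgeR called 8.54%, and 4152 had an unadjusted p under 0.05. Of the 12 microglial markers, 9 could be tested and 0 were called by edgeR (5 at an unadjusted p under 0.05, and 1 called higher by DESeq2), with a median log2 fold change of 0.64. None of the 12 was at 0 in all libraries, and 1, Aif1, was at 0 in wild type 1. The summed level of 12 markers of Bergmann glia and astrocytes was 357 to 405 CPM in wild type and 404 to 904 CPM in mutants (1 of 12 called, higher, median 0.63), and that of 12 oligodendrocyte markers was 541 to 772 CPM and 707 to 1250 CPM (3 of 12 called, 2 higher and 1 lower, median 0.54). The 10 granule cell markers summed to 503 to 625 CPM and 685 to 1260 CPM (median 0.51), and the 12 genes listed as endothelial to 33.6 to 54.7 CPM and 50.8 to 74.6 CPM (median 0.22). The endothelial list also held Rgs5 and Pdgfrb, which mark pericytes, at log2 fold changes of 0.83 and 0.63. Of the 12 Purkinje cell markers 0 were called by edgeR (3 at an unadjusted p under 0.05, 0 by DESeq2), with a median of 0.10. Against wild types of the same series, median log2 differences in mutants 1 to 4 were 0.28, 0.26, 1.34 and 0.70 for Bergmann glia and astrocytes. Oligodendrocyte markers gave 0.42, 0.17, 0.67 and 0.95, and granule cell markers 0.24, 0.28, 1.32 and 0.61. Microglial markers gave 0.34, 0.02, 0.30 and 0.50, and the endothelial list -0.14, -0.02, 0.37 and 0.88. The higher values were thus mostly in the second series, which has 1 wild type.

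Lamp1 and Ctsd are the genes of the proteins that the study stained to count lysosomes in Purkinje cell somata. Lamp1 (chr8:13159161-13175338) was at 430, 390 and 511 CPM in wild types 1 to 3 and at 407, 401, 458 and 493 CPM in mutants 1 to 4. The groups overlapped fully, and the log2 fold change was -0.05 (SE 0.09, edgeR adjusted p = 0.748), with a 95% interval of -0.25 to 0.14, or 0.84-fold to 1.1-fold. Ctsd (chr7:142375911-142388038) was at 148, 146 and 156 CPM in wild types 1 to 3 and at 189, 140, 146 and 215 CPM in mutants 1 to 4. Mutants 1 and 4 lay above the wild types and the other 2 at or below them. Its fitted log2 fold change was 0.18 (SE 0.15, edgeR adjusted p = 0.52), with a 95% interval of -0.17 to 0.54, or 0.891-fold to 1.45-fold.

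Among the other proteases, no gene passed the test. Ctsb, which had the highest level of the hydrolases, was at 790, 908 and 892 CPM in wild types 1 to 3 and at 667, 718, 658 and 813 CPM in mutants 1 to 4. Only mutant 4 lay above the lowest wild type. Its log2 fold change was -0.29 in both series alone to within 0.01 and in the joint fit (SE 0.11, edgeR adjusted p = 0.142). Ctsf, cathepsin F, was at 0.06, Ctsz, the carboxypeptidase cathepsin Z, at 0.11 on only 1.97 to 5.79 CPM, and Tpp1, the tripeptidyl peptidase deficient in a form of neuronal ceroid lipofuscinosis, at 0.25.

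The glycosidases moved in no common direction. Man2b1, lysosomal alpha-mannosidase, had a log2 fold change of 0.50 (SE 0.26, edgeR adjusted p = 0.29). Its levels were 7.43, 15.2 and 28.2 CPM in wild types 1 to 3 and 11.5, 15.1, 44.1 and 57.8 CPM in mutants 1 to 4, so that the wild types alone spanned more than the fitted change. In the second series alone the fold change was 0.86 and passed the test (adjusted p = 0.032), against 0.24 in the first. Manba, beta-mannosidase, was at -0.46 (SE 0.30, adjusted p = 0.401), and its mutants ran from 6.72 to 25.3 CPM. Gla, alpha-galactosidase A, Gaa, the acid alpha-glucosidase of glycogen breakdown, Idua and Ids, enzymes of heparan and dermatan sulfate breakdown, and Naglu, an enzyme of heparan sulfate breakdown, lay between -0.17 and 0.01.

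The hydrolases of lipids and lipid-modified proteins, apart from Lipa, also did not pass. Galc, galactosylceramidase, the enzyme deficient in Krabbe disease, was at -0.26 (SE 0.10, edgeR adjusted p = 0.157). Smpd1 was at 0.11 and Ppt1, palmitoyl-protein thioesterase, at -0.10. Of the lumenal cofactors, Npc2, which hands cholesterol to NPC1, was at 0.30 (SE 0.10, adjusted p = 0.114) and Psap at 0.12 (SE 0.09, adjusted p = 0.499). Psap ran from 1550 to 2300 CPM in wild type and from 1660 to 2670 CPM in mutants.

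The membrane proteins other than Cd63 lay in a narrow band. Their log2 fold changes ran from -0.05 (Lamp1) to 0.22 (Lamp2, a partner of Lamp1 that also serves chaperone-mediated autophagy). The 95% intervals of 5 of the 7 membrane proteins lay within ±0.5, against 5969 of all 17621 genes tested. Scarb2, the receptor that carries glucocerebrosidase to the lysosome, was at 0.04, Npc1 at 0.09, and Mcoln1, a calcium channel of the lysosomal membrane, and Cln3, the protein deficient in juvenile neuronal ceroid lipofuscinosis, both at 0.13. Mcoln1 and Cln3 had more than 2-fold higher CPM in wild type 3 than in the mean of wild types 1 and 2, and were compared within series.

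None of the 8 members of the proton pump was called. Of the 8 pump genes, edgeR called 0 (0 also at an unadjusted p under 0.05, and 0 by DESeq2), and of the 21 hydrolases it called 4 (2 lower and 2 higher), where it called 8.54% of all genes. Of all 17621 genes tested, 4152 had an unadjusted p under 0.05. No test of the difference between these counts was made, and a count of 0 called among 8 genes is near that background. The log2 fold changes of the pump ran from -0.50 to 0.15 with a median of -0.14, and 7 of 8 were below 0, where 46.6% of all tested genes were. The 95% interval of 7 of the 8 lay within ±0.5, against 5969 of all 17621 genes tested. The ATPase sector members were Atp6v1a, the catalytic subunit, at -0.03, Atp6v1b2, the brain form of the other nucleotide-binding subunit, at -0.04, and Atp6v1h at -0.19. The membrane sector members were Atp6v0a1, the neuronal form of the proton channel's large subunit, at -0.16, Atp6v0c at -0.14, and Atp6v0d1, which joins the membrane sector to the central stalk, at -0.13.

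The accessory proteins of the pump lay at the ends of its range. Atp6ap2, also known as the prorenin receptor, was at 293, 226 and 294 CPM in wild types 1 to 3 and at 110, 218, 242 and 249 CPM in mutants 1 to 4. Mutant 1 stood well below the other libraries, which overlapped between the genotypes. The log2 fold change was -0.50 (SE 0.22, 95% interval -1.01 to 0.00, edgeR adjusted p = 0.216). Atp6ap1 was at 0.15 (SE 0.09, adjusted p = 0.365). Atp6ap1, Atp6ap2, Gla, Ids and Lamp2 are the 5 members on the X chromosome, and edgeR called 0 of them (0 also at an unadjusted p under 0.05, and 0 by DESeq2). A count of 0 among 5 is near the 8.54% that edgeR called over all genes.

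Atp6v0c is a member whose reads could be split with a near-identical copy. It was at 587, 673 and 298 CPM in wild types 1 to 3 and at 579, 585, 219 and 305 CPM in mutants 1 to 4, lower in the second series in both genotypes. The processed pseudogene Atp6v0c-ps2 was counted at 590, 635 and 62.5 CPM in wild types 1 to 3 and at 562, 534, 49.1 and 69.8 CPM in mutants 1 to 4. In the first series the pseudogene was thus credited with about as many reads as the gene. With the counts of Atp6v0c-ps1 and Atp6v0c-ps2 added, the log2 fold change of Atp6v0c was -0.15 (edgeR adjusted p = 0.519), against -0.14 without them.

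**Figure D4:**
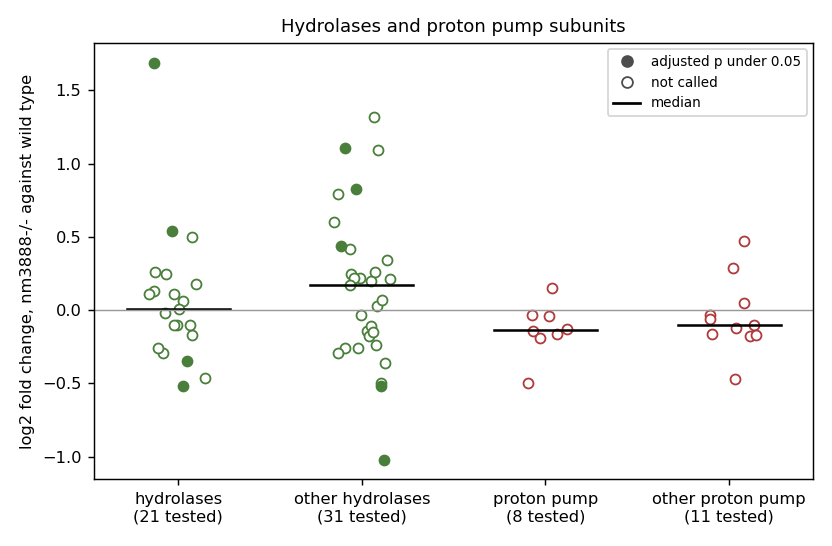
Log2 fold changes in nm3888-/- against wild type of the 21 hydrolase and 8 pump members and of the further lists (31 other hydrolases and 11 pump genes tested). The list of other hydrolases also holds Sumf1, Hgsnat and Gm2a, which are not hydrolases themselves. Filled points have an adjusted p under 0.05 and bars are medians (0.01, 0.17, -0.14 and -0.10 from left to right). The hydrolases spread to both sides of 0 and the pump genes lie close together, with none filled.

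Hydrolases and pump subunits were also compared as classes. The median log2 fold change was 0.01 for hydrolases and -0.14 for pump subunits, a difference of 0.15, and the values ran from -0.52 to 1.69 in the hydrolases and from -0.50 to 0.15 in the pump. Within each library, the mean log2 CPM of the 21 hydrolases minus that of the 8 pump members was -3.00, -2.91 and -2.73 in wild types 1 to 3 and -2.60, -2.90, -2.55 and -2.50 in mutants 1 to 4. In each series the mutants averaged above the wild types, by 0.20 in the first and 0.21 in the second on the log2 scale, though mutant 2 equalled wild type 2 to within 0.01. With Ctsl left out, an alternative chosen after seeing the data, these were 0.12 and 0.13, and the difference of the medians was 0.13. That difference of the medians depended more on the libraries: it was 0.06 in the first series alone and 0.17 in the second, 0.06 without wild type 3, 0.09 without mutant 3 and 0.22 without mutant 2, and 0.00 with sex in place of library series. No test was made of this difference, since the genes were chosen by name with earlier results known.

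The further genes of the pathway, fixed as lists, are given beside the 8.54% of all genes that edgeR called. Of the 31 genes listed as other hydrolases, 5 were called (16.1%). That list also held Sumf1, Hgsnat and Gm2a, which are not hydrolases themselves. Pla2g15, a lysosomal phospholipase, was the member of that list that fell most, from 12.4, 13.4 and 12.8 CPM in wild types 1 to 3 to 7.13, 5.93, 6.76 and 5.55 CPM in mutants 1 to 4 (log2 fold change -1.02, SE 0.13, edgeR adjusted p = 0.00218). Every mutant lay below every wild type. Lgmn, the asparaginyl endopeptidase legumain, which processes cathepsins, also fell (log2 fold change -0.52, SE 0.09, adjusted p = 0.00893). Scpep1, a serine carboxypeptidase, rose by 0.83 (SE 0.15, adjusted p = 0.0112), Galns, a sulfatase of keratan sulfate breakdown, by 1.11 on only 0.395 to 2.7 CPM (SE 0.28, adjusted p = 0.0424), and Sumf1, which activates the sulfatases from within the endoplasmic reticulum, by 0.44 (SE 0.09, adjusted p = 0.0229). The list's median was 0.17.

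Of 24 other membrane proteins, 23 were tested and 2 were called by edgeR (8.7%). Abcb9, a peptide transporter of the lysosomal membrane, was at 27.7, 26.9 and 34.8 CPM in wild types 1 to 3 and 21.5, 21, 25.1 and 24.1 CPM in mutants 1 to 4 (log2 fold change -0.42, SE 0.09, adjusted p = 0.024). Laptm4a rose by 0.40 (SE 0.09, adjusted p = 0.0274), and the list's median was -0.05. Of 17 other pump genes, 11 were tested and edgeR called 0 (1 at an unadjusted p under 0.05, and 2 called lower by DESeq2), with a median of -0.10. The pair of highest level, Atp6v1g2, the neuronal G subunit of the stalk, at 1250 ± 119 TPM and Atp6v0e2 at 358 ± 46.1 TPM in wild type, were at -0.47 (SE 0.13, adjusted p = 0.0658) and -0.10 (SE 0.12, adjusted p = 0.635). Atp6v1b1, a pump gene named after its values were seen, had too few reads for the joint fit, at 0.593, 0.593 and 0.234 CPM in wild types 1 to 3 and 0.0524, 0, 0 and 0.0443 CPM in mutants 1 to 4. In the first series alone it was called lower by edgeR (adjusted p = 0.0349), and in the second it was not (adjusted p = 0.123).

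Sorting and regulation of lysosomal genes were represented by 2 more lists. Of 20 genes of enzyme sorting, 1 was called by edgeR (5%): Vps29, a retromer subunit that helps return sorting receptors to the Golgi, was at 107, 113 and 101 CPM in wild types 1 to 3 and 77.2, 88.6, 73.3 and 85.2 CPM in mutants 1 to 4 (log2 fold change -0.39, SE 0.10, adjusted p = 0.0444). Every mutant lay below every wild type. Of 24 regulators, among them Tfeb, Tfe3 and Mtor, 23 were tested and edgeR called 0 (2 at an unadjusted p under 0.05, and 0 by DESeq2), with a median of -0.06. The regulators of highest level were Rraga, a GTPase that recruits mTORC1 to lysosomes, at -0.16 (SE 0.08, adjusted p = 0.302), and Ppp3r1, the regulatory subunit of calcineurin, at -0.27 (SE 0.15, adjusted p = 0.319).

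The members with the E-box were compared with those without it. The 13 members with CACGTG in the promoter window had a median log2 fold change of 0.06, and the 21 without it 0.04. Ctsl was the only called gene among the 13. The 7 members with TCACGTGA had log2 fold changes of -0.17 to 0.18, and edgeR called 0 of them (0 also at an unadjusted p under 0.05, and 0 by DESeq2). Counts of 1 among 13 and 0 among 7 are near the 8.54% that edgeR called over all genes.

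Within-series values gave the same sign for 29 of the 37 members that could be tested in both series, a count not made over all genes. The first series compared 2 mutants with 2 wild types and the second 2 mutants with 1 wild type. Ctsl, Hexa, Lipa and Neu1 kept both direction and similar size: Hexa was at 0.55 and 0.52, Lipa at -0.46 and -0.59, and Neu1 at -0.34 and -0.38 in the first and second series. These genes were picked by the joint fit of the same libraries, so this likeness is not separate support. Of the 4 genes, only Ctsl passed the edgeR test in the first series alone (adjusted p = 0.00118), and its value in the second was 1.54.

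**Figure D5:**
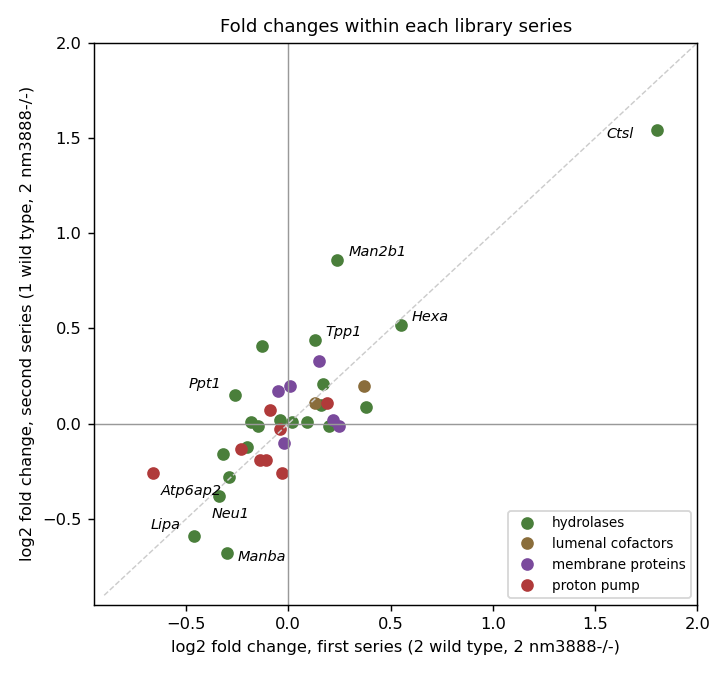
Log2 fold change in nm3888-/- against wild type within the first library series (x axis) and within the second (y axis) for the 37 genes tested in both, coloured by protein class, with the line of equality dashed. Ctsl lies at 1.80 and 1.54, and most others lie within ±0.5 on both axes.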

How the data were processed

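The deposited files hold read counts per gene. Per the file headers and the study's methods, the authors removed duplicates and trimmed reads with fastp, aligned them to mm10 and counted read pairs with featureCounts 2.0.1 over GENCODE exons, reverse-stranded. The header paths name a Bowtie2 folder for the first library series and a STAR folder for the second, and this with the library names defined the series. The labels and methods name Bowtie2 alone, and they do not say which library was in which batch, so whether this term is the batch the authors used is not known, although every fold change rests on it. No value was normalized before deposit.

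From the counts, genes passing filterByExpr were tested with edgeR 4.0.16 in R 4.3.3 (TMM, glmQLFit and glmQLFTest, library series plus genotype, Benjamini-Hochberg over all tested genes, 3 wild-type against 4 nm3888-/- libraries of 1 mouse each). DESeq2 1.42.0 was an alternative. The script was tested on simulated counts. CPM are TMM-normalized without a pseudocount, and library means of log2 CPM used a pseudocount of 0.5. TPM used the exon length in the files. Intervals cover 95%.

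All members could be named. Values for every library were given for called members, Lamp1 and Ctsd, and for a few others chosen after their values were seen. From each further list at most 4 called genes per direction were named, or the 2 of highest wild-type TPM. Members, lists and rules were chosen with earlier results of these data known.

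Same-numbered mice of the 2 genotypes deviated together (r = 0.914, 0.946 and 0.960 for numbers 1 to 3), so the replicate numbers were also fitted as blocks. Differently numbered mice of a series did so about as strongly: r was 0.926 for wild type 1 and mutant 2. It was 0.929 for wild type 2 and mutant 1, and 0.956 for wild type 3 and mutant 4. The deviations thus went with the series more than with the number. After library series the same-numbered correlations were -0.236, -0.057 and -0.378. Residuals of that fit must cancel within a series, so these values cannot decide whether the numbers mark pairs. The block fit has more terms than the series fit, and mutant 4, alone in its block, adds nothing to its genotype difference. A call lost there can reflect this smaller comparison. Other alternatives were size factors, filters, covariates, single series, thinning and leaving out each library.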

Additional observations from a re-analysis of the deposited data

How the results depend on the processing

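Depth differed 5.99-fold between libraries, and the second series had 1 wild type. For 5 of the 38 members the 95% interval of the log2 fold change reached beyond ±1. The call of Ctsl was kept in 16 of 18 alternatives (log2 fold change 1.54 to 1.80). It was lost with sex in place of library series (1.57, adjusted p = 0.0692) and with mutant 2 placed in the second series (adjusted p = 0.0529). Hexa was called in 6 of 18, Lipa in 4 of 18, Neu1 in 2 of 18 and Cd63 in 7 of 17. With sex as the term Hexa turned to -0.04 (adjusted p = 0.983) and Cd63 to -1.59 (adjusted p = 0.848).

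The 2 members called lower, both hydrolases, became 1 with RLE size factors or no filter. They became 0 with the replicate block, no batch term, sex as the term, mutant 2 moved, either series alone, or thinning to the smallest library, and were 0 to 0 when any 1 library was left out. The 3 called higher became 1 with no batch term or the first series alone, 0 with sex as the term or mutant 2 moved, and 1 to 2 without any 1 library. Over all genes, sex as the term called 85 lower and 17 higher, and mutant 2 moved 86 and 19, against 1049 and 455. The block called 571 and 241, and no batch term 251 and 58. DESeq2 called 1256 and 794 of all genes and 2 and 3 of the members. The median of the pump was -0.06 with no batch term, -0.18 with sex as the term, -0.10 in the first series, and -0.16 to -0.08 without any 1 library. The median of the hydrolases was -0.18 with sex as the term, when hydrolases minus pump was 0.00. Mutants 3 and 4 were the only males. That fit therefore compared mutants 1 and 2 with wild types 1 to 3, which came from both series, without a term for library series. An effect of sex itself was not tested. Of the values for single members over these alternatives, 608 kept their side of the threshold and either their direction or their value to within 1 SE, 52 lost the call in the same direction, 2 lost it and reversed, 2 gained it and 19 without a call changed sign by more than 1 SE. Levels without length were not run.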

Other observations

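The library series differed in the levels of many lysosomal genes within wild type, a comparison that no group of the study covers. The CPM of wild type 3 over the mean of wild types 1 and 2 ran from 0.473 (Atp6v0c) to 17.9 (Cd63) over the 38 genes, with a median of 1.19, and it exceeded 1.5 for 11 genes and 2 for 7. Ctsa (2.32), Ctsf (2.13), Mcoln1 (2.3), Cln3 (2.43), Man2b1 (2.49) and Hexa (2.54) are among these, whereas Lipa (1.01), Neu1 (0.989), Ctsb (1.05) and Ctsd (1.06) were near 1. Ctsl was at 1.51.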
